A study of Sorghum bicolor with 12 samples.

Results

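The phytochrome genes of sorghum (Sorghum bicolor), PHYA (Sobic.001G111500), PHYB (Sobic.001G394400, the maturity locus Ma3) and PHYC (Sobic.001G087100, the maturity locus Ma5), were read in sorghum root RNA of 2 genotypes, the brassinosteroid receptor mutant bri1-ems72 and the sibling line WT-ems72, its wild-type control. The members were taken by their gene IDs, and they are 3 of the 34129 genes in the count table. All 3 passed the filter on low counts. Both genotypes were BC2F2 plants, the selfed progeny of a second backcross, so the 2 groups share the backcross generation. Whether they differ elsewhere in the genome than at the bri1 mutation was not tested. There were 3 replicate pools per genotype, with a minimum of 6 roots in a pool. The embryos were taken 13 to 17 days after anthesis and raised in vitro at 28 °C, untreated, until the roots were cut at 8 days. Each pool was sequenced in 2 technical runs, which were summed, so n counts pools. The light regime of the growth chamber is not given in the sources used here.

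Phytochromes are red and far-red light receptors that carry a bilin pigment and switch between an inactive and an active form as they absorb light. The active form enters the nucleus, where it acts on transcription factors that otherwise hold back light responses. In seed plants phyA is the light-labile form that senses weak and far-red light, and in grasses such as oat its transcript is known to be abundant in darkness and reduced by light. Phytochrome B is the light-stable form that senses red light and shade, and phyC works together with phyB in grasses. In sorghum, PHYB and PHYC are best known as maturity genes, which delay flowering in long days. Brassinosteroids, perceived by the receptor kinase BRI1, and light act on seedling growth in opposite directions in Arabidopsis, through transcription factors that both pathways reach.

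The 6 pools held 44357644 to 54629427 counts each. BRI1 itself (Sobic.003G277900) had 97.9 to 106.9 CPM in bri1-ems72 and 75.0 to 88.5 CPM in WT-ems72, a log2 fold change of 0.28 (SE 0.17, edgeR adjusted p = 1.00), and a mutation in the gene need not change its transcript level, so this does not check the genotype labels. The tissue label was not checked against root markers, because the gene IDs of the table could not be joined to gene names. CPM is the count of a gene scaled to the size of its library, here with TMM factors.

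All 3 phytochrome transcripts were detected in every pool, and PHYA drew by far the most reads. PHYA averaged 1039 ± 398 CPM in bri1-ems72 and 1625 ± 444 CPM in WT-ems72 (SD, n = 3 each). By its count it ranked between place 17 and place 118 of the 34129 genes, depending on the pool. PHYC ranked between place 603 and place 1244, and PHYB between place 3063 and place 4442. Counts grow with transcript length, and no lengths were joined to these genes. The ranks and the ratios between genes therefore describe reads, and no order of transcript numbers is read from them.

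PHYA, the far-red receptor gene, had 667, 992 and 1458 CPM in bri1-ems72 replicates 1, 2 and 3, against 1639, 2062 and 1175 CPM in WT-ems72 replicates 1, 2 and 3. The genotypes overlapped, since bri1-ems72 replicate 3 lay above WT-ems72 replicate 3. The highest pool, WT-ems72 replicate 2, had 3.09 times the level of the lowest, bri1-ems72 replicate 1. Pools of the same genotype differed by up to 2.19-fold in bri1-ems72 and by up to 1.76-fold in WT-ems72.

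PHYB, the red-light receptor gene, had 57.3, 55.7 and 68.7 CPM in bri1-ems72 replicates 1, 2 and 3, against 76.3, 63.4 and 60.4 CPM in WT-ems72 replicates 1, 2 and 3. It varied the least of the 3 genes, with 1.37-fold between its highest and its lowest pool. The genotypes overlapped here too, with bri1-ems72 replicate 3 above WT-ems72 replicates 2 and 3.

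PHYC, whose product works with phyB, had 160.6, 141.4 and 213.1 CPM in bri1-ems72 replicates 1, 2 and 3, against 196.5, 204.5 and 236.1 CPM in WT-ems72 replicates 1, 2 and 3. Its highest pool had 1.67 times the level of its lowest. The overlap came from bri1-ems72 replicate 3, which lay above WT-ems72 replicates 1 and 2.

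**Figure D1:**
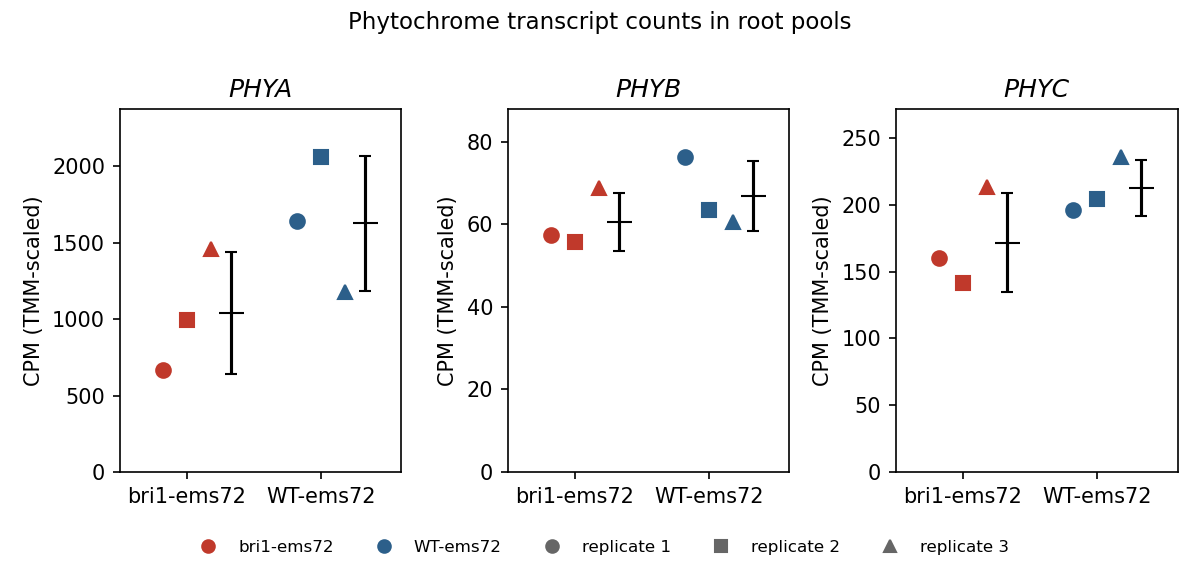
TMM-scaled CPM of PHYA, PHYB and PHYC in each root pool (points, with the marker giving the replicate), bri1-ems72 left and WT-ems72 right; the black bars give the mean and the SD of 3 pools. In each panel bri1-ems72 replicate 3 lies among the WT-ems72 pools, and the other two bri1-ems72 pools lie below all WT-ems72 pools.

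The mean of each phytochrome gene was lower in bri1-ems72, but 0 of 3 passed the test over all genes. The background was 0% of 23707 tested genes called lower and 0% called higher (edgeR quasi-likelihood test, threshold of 0.05 after Benjamini-Hochberg adjustment). Without adjustment 337 genes (1.42%) had p below 0.05 in that fit, none of them a phytochrome gene. Of these, 62 (0.262% of tested genes) were lower in bri1-ems72. With no difference in any gene a share of about 0.05 would be expected, so the p-values of this fit ran high. The reason was not tested. With the number in the sample titles as a block, 1311 of the 23707 tested genes had p below 0.05, close to that expected share. That fit left fewer degrees of freedom for the spread between pools, so its count is not directly comparable with the 337. The count of calls was 4 with DESeq2, 2 with the likelihood ratio test of edgeR and 0 with limma-voom, and again none was a phytochrome gene. A negative log2 fold change was found for 3 of 3 members and for 52% of all tested genes. The median log2 fold change was -0.012 over all tested genes.

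With all 6 pools PHYA had the largest difference of the 3, with a mean 36.1% lower in bri1-ems72 and a log2 difference of -0.65 (SE 0.39, 95% interval -1.56 to 0.26, edgeR adjusted p = 1.00). With the number in the sample titles as a block, in which the lowest and the highest PHYA pools do not enter the contrast, PHYA (-0.21) differed less than PHYC (-0.31). The PHYA interval from all 6 pools reaches from a level in the mutant less than 2-fold higher to one more than 2-fold lower. In these bulk samples fewer cells that express a gene and less RNA per cell cannot be told apart. PHYC had 172 ± 37.1 CPM in bri1-ems72 and 212 ± 20.9 CPM in WT-ems72 (SD, n = 3 each). Its log2 fold change was -0.31 (SE 0.23, 95% interval -0.85 to 0.24, edgeR adjusted p = 1.00). PHYB had 60.6 ± 7.10 CPM in bri1-ems72 and 66.7 ± 8.46 CPM in WT-ems72 (SD, n = 3 each). The log2 fold change of PHYB came to -0.14 (SE 0.18, 95% interval -0.57 to 0.29, edgeR adjusted p = 1.00). With all 6 pools the intervals of PHYB and PHYC leave out a 2-fold difference in either direction. For PHYC this did not hold without bri1-ems72 replicate 3, where the lower bound was -1.06, or without WT-ems72 replicate 1, where it was -1.004. They are intervals for single genes and are not adjusted over genes. An exact two-sided permutation test of log2 CPM gave p = 0.2 for PHYA, 0.4 for PHYB and 0.3 for PHYC, where 3 pools against 3 can give no value below 0.1.

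The same pools stood low in all 3 genes. Replicates 1 and 2 of bri1-ems72 were the lowest pools of the 6 for PHYA, for PHYB and for PHYC, and bri1-ems72 replicate 3 lay within the range of the WT-ems72 pools each time. Of all 23707 tested genes, 6.77% had these 2 pools below the other 4. This pair of pools was picked after its values were seen, and the 3 genes were read in the same libraries, so they are not independent of each other. With all 6 pools, every bri1-ems72 pool lay below every WT-ems72 pool for 0 of 3 members and for 1.7% of tested genes.

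Single pools moved the differences without changing their sign. The PHYA log2 fold change was -0.97 (95% interval -1.96 to 0.01) without bri1-ems72 replicate 3 and -0.42 without bri1-ems72 replicate 1. Without bri1-ems72 replicate 3 the PHYB log2 fold change was -0.24 and that of PHYC was -0.49. The PHYB value came down to -0.034 without WT-ems72 replicate 1, and the PHYC value to -0.19 without bri1-ems72 replicate 2. None of the 3 genes was called in any of these fits, in which 1 genotype had 2 pools (edgeR adjusted p = 1.00 throughout).

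**Figure D2:**
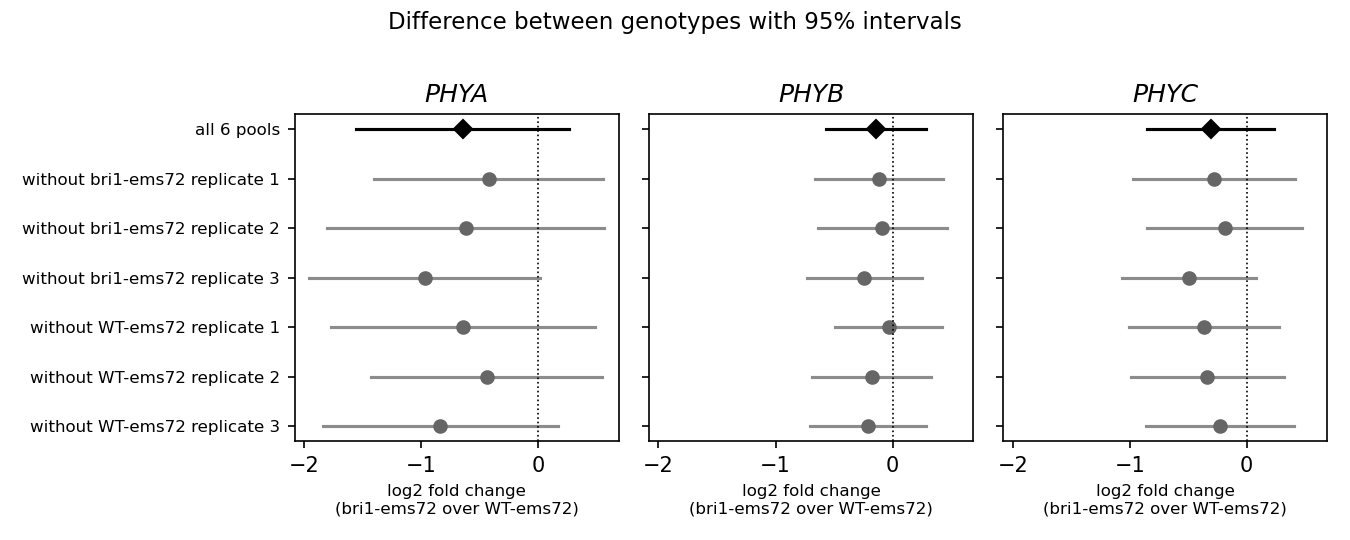
Log2 fold change of bri1-ems72 over WT-ems72 for each gene with its 95% interval, from all 6 pools (black diamonds) and with each pool left out in turn (grey circles). Every point lies below 0 and every interval includes 0; PHYA comes nearest to leaving it out without bri1-ems72 replicate 3, at -0.97 with an upper bound of 0.01.

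The proportion of the 3 transcripts within a pool was compared next, since such a ratio needs no scaling between libraries and gene length cancels when it is set against another pool. PHYA made up 75.4% to 83.8% of the summed CPM of the 3 genes in bri1-ems72 pools and 79.8% to 88.5% in WT-ems72 pools. PHYC made up 11.9% to 18.2% in bri1-ems72 pools and 8.78% to 16.0% in WT-ems72 pools. PHYB made up the rest, 3.95% to 6.48% in bri1-ems72 pools and 2.72% to 4.11% in WT-ems72 pools. The sum itself was 1271 ± 433 CPM in bri1-ems72 and 1904 ± 429 CPM in WT-ems72 (SD, n = 3 each), and most of that difference was PHYA.

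The ratio of PHYA to PHYB counts was 11.6, 17.8 and 21.2 in bri1-ems72 replicates 1, 2 and 3, against 21.5, 32.5 and 19.4 in WT-ems72 replicates 1, 2 and 3. Only WT-ems72 replicate 3 lay within the range of the mutant pools. The mean log2 ratio was 4.03 ± 0.45 in bri1-ems72 and 4.58 ± 0.39 in WT-ems72 (SD, n = 3 each), a difference of -0.54 (exact two-sided permutation p = 0.2, adjusted p = 0.4 over the 3 pairs of genes compared).

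The ratio of PHYA to PHYC counts was 4.15, 7.01 and 6.84 in bri1-ems72 replicates 1, 2 and 3, against 8.34, 10.1 and 4.98 in WT-ems72 replicates 1, 2 and 3, and the genotypes overlapped. The mean log2 ratios differed by -0.36 (exact two-sided permutation p = 0.4, adjusted p = 0.4). The ratio of PHYC to PHYB counts was the steadiest, at 2.80, 2.54 and 3.10 in bri1-ems72 replicates 1, 2 and 3, against 2.57, 3.23 and 3.91 in WT-ems72 replicates 1, 2 and 3. It changed 1.54-fold between its lowest and its highest pool, where PHYA to PHYB changed 2.79-fold and PHYA to PHYC 2.43-fold. Its mean log2 difference was -0.19 (exact two-sided permutation p = 0.4, adjusted p = 0.4). With 3 pools against 3, no ratio could give a permutation p below 0.1, so these tests cannot show whether the balance of the receptor transcripts differed between the genotypes. The differences also rested on single pools. For PHYA over PHYC the difference was -0.11 without bri1-ems72 replicate 1, for PHYC over PHYB it was -0.039 without WT-ems72 replicate 3, and for PHYA over PHYB it was -0.30 without bri1-ems72 replicate 1.

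**Figure D3:**
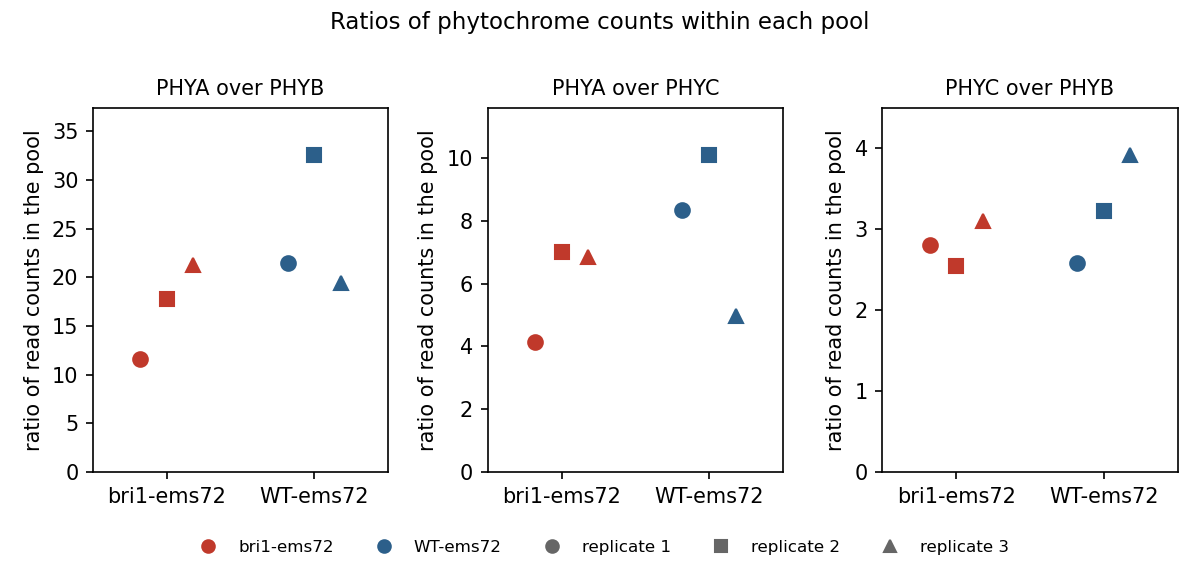
Ratio of read counts of 2 phytochrome genes within each pool (points, with the marker giving the replicate), bri1-ems72 left and WT-ems72 right, on linear axes from 0. PHYA over PHYB runs from 11.6 in bri1-ems72 replicate 1 to 32.5 in WT-ems72 replicate 2, while PHYC over PHYB stays between 2.54 and 3.91.

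Counting error and the difference between sequencing runs were small beside the spread of PHYA and PHYC between pools. The lowest count of any member in a pool was 2449 for PHYB in bri1-ems72 replicate 1, which has a counting error of 2.02%. For single columns CPM was scaled to the total count of the column, without TMM factors, unlike the CPM of pools. The CPM of the 2 columns of a pool differed by at most 0.987% for PHYA and 2.82% for PHYC. For PHYB the columns differed by at most 9.99%, in WT-ems72 replicate 1, the pool with the highest PHYB level, where they gave 81.8 and 74.0 CPM. In the other 5 pools the PHYB columns differed by at most 3.12%.

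Against genes of like abundance the phytochromes were ordinary or steady. The SD of log2 CPM between pools of a genotype was 0.49 for PHYA, and 50% of the 44 genes within 0.5 log2 units of its mean level had a smaller one. For PHYC the SD was 0.24, where 29.4% of 889 genes had a smaller one, and for PHYB it was 0.17, where 22.1% of 3031 genes did. The median SD of the genes of like abundance was 0.48 for PHYA, 0.33 for PHYC and 0.27 for PHYB. The spread of PHYA thus lay close to the median of the few genes with as many reads.

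**Figure D4:**
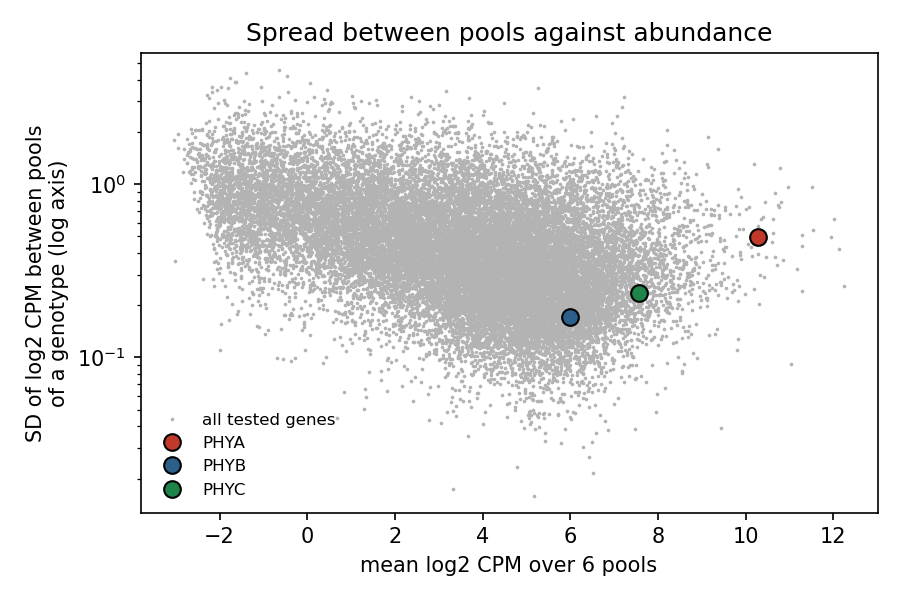
SD of log2 CPM between pools of the same genotype (log axis) against mean log2 CPM over the 6 pools, for all 23707 tested genes (grey) and the 3 phytochrome genes (coloured). PHYA stands at the sparse right end with an SD of 0.49, and PHYB (0.17) and PHYC (0.24) stand in the lower part of the cloud.

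All 3 phytochrome genes carry the number of chromosome 1 in their IDs, which in this ID style run along the chromosome. There were 204 tested genes between PHYC and PHYA and 2072 between PHYA and PHYB. The 20 tested genes with the nearest ID numbers, 10 on each side, had a median log2 fold change of -0.089 around PHYA, -0.054 around PHYC and 0.049 around PHYB. Among them 11, 11 and 8 were below 0, so the neighbours of PHYA and PHYC were split about evenly in sign. Of all tested genes 52% were below 0. At an unadjusted p below 0.05 there was 1 neighbour of PHYA and 0 of the other two genes (edgeR).

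The genes most like each phytochrome gene were sought among 21280 other tested genes with a mean of at least 1 CPM, by the root mean square difference of centred log2 CPM over the 6 pools. The 3 genes most like PHYA differed from it by 0.10 to 0.15, against its own spread of 0.53 about its mean. Each of the 3 had few reads. Their counts were 0.0843% to 0.103%, 0.0695% to 0.0929% and 0.186% to 0.257% of the PHYA count over the 6 pools. Sobic.001G110701, singled out after its values were seen, was the third of them and lies only 7 tested genes from PHYA by ID. It had 1.24, 2.55 and 3.02 CPM in bri1-ems72 replicates 1, 2 and 3, against 3.41, 4.97 and 2.69 CPM in WT-ems72 replicates 1, 2 and 3, with a log2 fold change of -0.70 (edgeR adjusted p = 1.00). The 6 pools stood in the same order as for PHYA, from WT-ems72 replicate 2 down to bri1-ems72 replicate 1. The gene was picked for its likeness, so this order is a description. Whether these genes share reads with PHYA was not tested.

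The 3 genes most like PHYC differed from it by 0.051 to 0.057, and those most like PHYB by 0.028 to 0.040. None of these 6 genes carried the number of chromosome 1, and their mean levels ran from 15.1 to 160.8 CPM. The phytochrome genes were not among the nearest patterns of each other. PHYC differed from PHYB by 0.21, and PHYA differed by 0.44 from PHYB and by 0.43 from PHYC. Ranked by likeness to PHYB, PHYC held place 3357 of 21280, and ranked by likeness to PHYC, PHYB held place 1763. Ranked by likeness to PHYA, PHYC held place 1516 and PHYB place 1743. PHYA itself held place 11385 for PHYC and place 13211 for PHYB. These places depend on the size of a gene's spread as well as on its pattern. The gene IDs of these nearest genes are not paired with names in the sources used here.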

How the data were processed

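The authors deposited raw, unnormalized counts for each gene. The submitters' processing notes name HISAT2 2.1.0 and featureCounts 1.6.2, besides Trimmomatic 0.38, FastQC 0.11.2, R 4.1.1 and edgeR 3.34.1. Genome build, annotation and strand setting were not given in the sources used here, and overlapping or antisense genes may share reads. Libraries were stranded mRNA, read as pairs of 100 nt, per the labels' protocols. The table's 12 columns carry 6 names, each on 2 columns, and the columns of a name were summed as 1 pool.

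The fit used edgeR 4.0.16 in R 4.3.3: filterByExpr (23707 genes kept, 10422 removed), TMM, robust glmQLFit with genotype as the only term, glmQLFTest (two-sided), and Benjamini-Hochberg adjustment over all tested genes at 0.05. Log2 CPM used a prior count of 2. DESeq2 1.42.0 and limma 3.58.1 served as alternatives. The fit was tested on simulated data in which each gene was drawn independently. Differences that many genes of a pool share were not simulated, so that test does not cover them. Nothing says whether pools came from separate sowings. The edgeR p-values set the difference between genotypes against the spread between these pools, which may not include the spread between sowings.

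The members and lists were chosen with earlier results of these data known. The rule for named genes took the members, BRI1, members of product-text lists and the nearest patterns. The table's IDs matched 0 entries of the RefSeq gene table, as written or with the locus tag prefix replaced. The pathway and marker lists, gene lengths, sequences and coordinates were therefore not used here, and levels of different genes were compared only as read ratios. The names PHYA, PHYB, PHYC and BRI1 do not come from the table.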

Additional observations from a re-analysis of the deposited data

How the results depend on the processing

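Each of the 3 phytochrome genes kept a negative log2 fold change and stayed uncalled under all 17 alternatives, with a range of -0.97 to -0.21 for PHYA, -0.24 to -0.034 for PHYB and -0.49 to -0.19 for PHYC. The lowest unadjusted p was 0.0523 for PHYA, 0.277 for PHYB and 0.0795 for PHYC, each without bri1-ems72 replicate 3. Against 0 genes called higher and 0 lower over the table, DESeq2 gave 3 and 1, and the likelihood ratio test of edgeR gave 1 and 1; the cause was not tested, and the other 15 alternatives called 0 and 0. Genes at unadjusted p below 0.05 numbered 531 with DESeq2 and 509 without bri1-ems72 replicate 3, against 337. With the title number as a block they numbered 1311, close to the share of 0.05 expected with no difference. The replicate block by description number gave PHYA -0.69, PHYB -0.14 and PHYC -0.32 with 0 calls. Pools with the same description number had deviations from the means of their genotypes that correlated at 0.044, -0.23 and 0.40, and this was not read as pairing. The 2 pairs that share a title number correlated at 0.39 (bri1-ems72 replicate 2 with WT-ems72 replicate 1) and 0.40 (replicate 3 of each genotype). All other pairs across the genotypes ran from -0.40 to 0.24. What the title number marks is not stated, and 2 pairs are too few to take it as pairing. In the first of these pairs log2 CPM in bri1-ems72 differed by -0.72 for PHYA, -0.45 for PHYB and -0.47 for PHYC. In the second it differed by 0.31, 0.19 and -0.15, so PHYA and PHYB were higher in the mutant there. With the replicate block by title number the values were PHYA -0.21, PHYB -0.13 and PHYC -0.31. It leaves out of its contrast the pools with unmatched titles, bri1-ems72 replicate 1 and WT-ems72 replicate 2, the lowest and the highest PHYA pools, between which log2 CPM differed by -1.63. The differences of the log2 ratios between genotypes kept their sign under all 8 alternatives each, but leaving out single pools gave -0.73 to -0.30 for PHYA over PHYB, -0.65 to -0.11 for PHYA over PHYC and -0.34 to -0.039 for PHYC over PHYB. The pathway lists and the levels per kilobase of coding sequence were not run, for want of product text and lengths; the ratios of CPM, planned as an alternative, were used in place of levels per kilobase.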
